A study of Mus musculus with 6 samples.

Results

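mmu-miR-103-3p and mmu-miR-107-3p are the mature products of a microRNA (miRNA) family whose genes lie inside introns of the pantothenate kinase (Pank) genes. Both were chosen by name. They are 2 of the 782 miRNA names above 0 in a table of short RNAs bound to Argonaute (Ago) proteins in mouse brain. Of the table's 65087 sequences above 0, 223 carried these names, 116 of them that of miR-107-3p and the rest that of miR-103-3p. Another 26 rows named miR-103-3p and 29 named miR-107-3p were at 0 in all 6 samples.

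The samples were 3 WT mice and 3 Tau tg mice, all male, 3 months old and on a C57BL/6J background. In Tau tg, a human tau fragment, tau45-230, was expressed from a transgene driven by the neuronal Thy 1.2 promoter, and the WT controls had no transgene. The sample names cite the hippocampus, while the protocol speaks of hippocampus plus cortex. The study asked whether RISC-bound short RNAs (R-sRNAs) shift toward toxic seeds in this tauopathy model, and the comparison made here is Tau tg against WT. The table has no measurement of the transgene, so the genotypes were not checked against it.

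A miRNA guides Ago to target mRNAs mainly through its seed, the bases near its 5′ end. miR-103 and miR-107 have the same seed and are often treated as one activity, known for effects on insulin sensitivity and on the miRNA-processing enzyme Dicer. miR-107 has also been studied as a regulator of the β-secretase BACE1 in Alzheimer's disease. The host genes encode pantothenate kinases, which catalyse the first step of coenzyme A synthesis.

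The mature sequences are shown first, with bases 2 to 8, the seed, in capitals, because both members present the same seed. They are RefSeq entries on GRCm38.p6.
mmu-miR-103-3p: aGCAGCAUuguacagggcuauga
mmu-miR-107-3p: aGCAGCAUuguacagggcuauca

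Of their 23 bases, 22 are identical. The only difference is G22C, with positions counted from 1 at the 5′ end, the base of miR-103-3p first and that of miR-107-3p last. The distinguishing base is in capitals in the next pair, since all that follows on telling the members apart rests on it.
mmu-miR-103-3p, position 22: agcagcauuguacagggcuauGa
mmu-miR-107-3p, position 22: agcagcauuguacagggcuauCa

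The hairpins that give rise to them are shown with the 3p mature sequence in capitals, because the genes cannot be told apart where the capitals are identical. Mir103-1 and Mir103-2 encode the same mature 3p sequence, so a miR-103-3p read does not say which gene it came from.
Mir103-1: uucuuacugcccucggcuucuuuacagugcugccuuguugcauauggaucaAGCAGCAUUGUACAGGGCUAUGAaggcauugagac
Mir103-2: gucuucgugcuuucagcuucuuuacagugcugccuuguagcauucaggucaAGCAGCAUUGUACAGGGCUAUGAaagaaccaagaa
Mir107: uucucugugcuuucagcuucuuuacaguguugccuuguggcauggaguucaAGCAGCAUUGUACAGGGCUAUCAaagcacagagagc

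On GRCm38, Mir103-1 lies at chr11:35782396-35782481 on the plus strand, in an intron of Pank3. Mir103-2 lies at chr2:131288052-131288137 on the plus strand, in an intron of Pank2. Mir107 lies at chr19:34820687-34820773 on the minus strand, in an intron of Pank1. Each hairpin is on the same strand as its host gene in the GENCODE annotation.

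Levels are given in RPM, read numbers that the authors scaled to the size of each library. Each value was a whole multiple of the worth of 1 read, which gave between 998248 reads (WT 3) and 6879551 reads (Tau tg 1) per sample. The neuronal miR-124-3p was high in every sample (47769 to 90279 RPM), and the liver miRNA miR-122-5p was at 0 to 28.4 RPM. Summed levels overlapped between groups for the markers of neurons (129096 to 152339 RPM), oligodendrocytes (8442 to 13997 RPM), microglia and leukocytes (276 to 520 RPM) and red blood cells (474 to 1130 RPM). Of the 12 markers, miR-9-5p alone had groups that did not overlap (29427 to 37677 RPM for WT, Tau tg from 44564 to 48005 RPM).

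Under the deposited names, miR-103-3p was the more abundant member. Its level was 8795, 4505 and 4719 RPM in WT 1 to 3, and 8062, 4237 and 8704 RPM in Tau tg 1 to 3. The WT mean was 6007 ± 2418 RPM (SD, n = 3) and the Tau tg mean 7001 ± 2415 RPM (SD, n = 3). By mean level it ranked 31 among all miRNA names. Each group had both high and low samples, and the groups overlapped.

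The difference of miR-103-3p was 0.22 ± 0.36 (SE) on the log2(RPM + 1) scale, with an adjusted p of 0.933 in limma (unadjusted p = 0.550). The median difference of all 689 miRNAs tested was 0.25 on this scale, so the value of miR-103-3p was near the middle of the table. It was 0.06 after median-of-ratios scaling, 0.12 in edgeR and 0.08 in DESeq2, and it was not called in any of them. Fewer cells of a type and less RNA per cell cannot be told apart in these bulk samples.

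The level named miR-107-3p was 4277, 2420 and 3092 RPM in WT, and 4562, 2236 and 4002 RPM in Tau tg. The means were 3263 ± 940 RPM (SD, n = 3) in WT and 3600 ± 1214 RPM (SD, n = 3) in Tau tg, and it ranked 52. The groups overlapped, and the difference was 0.12 ± 0.35 (SE) on the same log2 scale, with an adjusted limma p of 0.963 (unadjusted p = 0.740). It was -0.04 on the log2 scale after median-of-ratios scaling, under which the median of all miRNAs was 0.09. Neither member was called.

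Across all 689 miRNAs, 25 had an unadjusted limma p under 0.05, which is 3.63% of those tested. Of these, 14 were higher in Tau tg, against 10 of 25 after median-of-ratios scaling and 7 of 24 after quantile normalization. After adjustment, limma and edgeR called 0 miRNAs and DESeq2 called 5. Neither member was among the calls of any of these tools.

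The levels of both members separated by the depth of the libraries and not by genotype. In the 3 deepest libraries (WT 1, Tau tg 1 and Tau tg 3) miR-103-3p was at 8062 to 8795 RPM, and in the 3 shallowest (WT 2, WT 3 and Tau tg 2) at 4237 to 4719 RPM. miR-107-3p was at 4002 to 4562 RPM in the deepest set and 2236 to 3092 RPM in the shallowest. No library of one set reached the levels of the other. miR-455-3p had this split too, but it was picked as the miRNA closest to miR-103-3p in pattern, so that was nearly given. It stood at 272, 193 and 314 RPM in WT 1, Tau tg 1 and Tau tg 3, and at 154, 153 and 145 RPM in WT 2, WT 3 and Tau tg 2. Of the other miRNAs picked for likeness below, miR-29a-3p, miR-24-3p and miR-30c-5p split, and miR-374b-5p and miR-137-3p did not. How many miRNAs beyond these picks split in this way was not counted.

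Within the deepest set, the miR-103-3p level was 8795 RPM in the WT sample and 8383 RPM on average in the Tau tg samples. Within the shallowest set it was 4612 RPM on average in WT and 4237 RPM in Tau tg. These values rest on 1 WT sample in the deepest set and 1 Tau tg sample in the shallowest, and Tau tg 3, at 8704 RPM, was close to WT 1. The corresponding miR-107-3p levels were 4277 and 4282 RPM in the deepest set, and 2756 and 2236 RPM in the shallowest. The part of depth in these levels was not tested, and a set that holds 1 sample of a group allows no test.

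**Figure D1:**
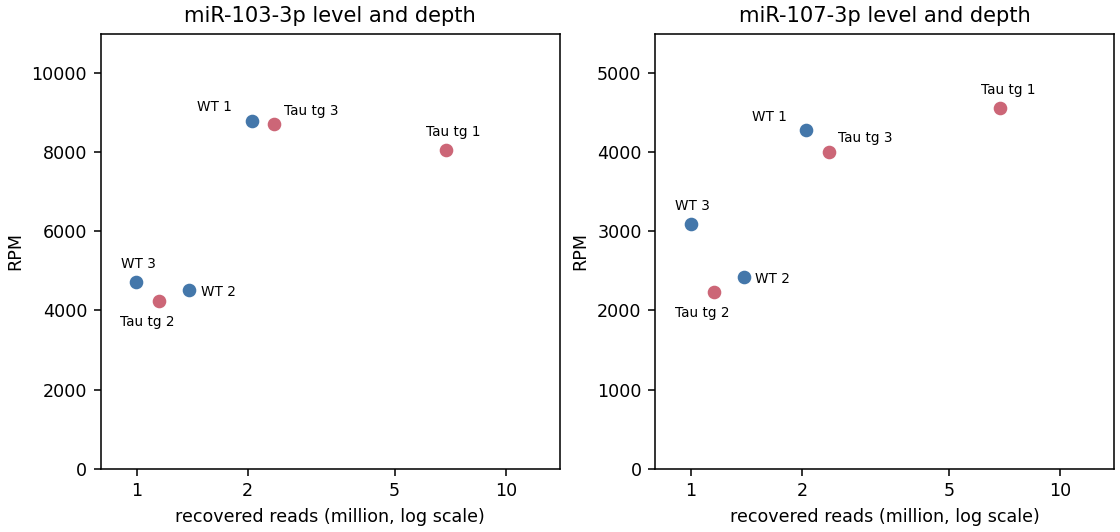
Level of miR-103-3p (left) and miR-107-3p (right) in RPM, as named in the table, against the reads recovered per sample on a log axis. Blue points are WT and red points Tau tg samples, 3 of each. The 3 deepest samples lie at 8062 to 8795 RPM for miR-103-3p and the other 3 at 4237 to 4719 RPM.

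miRNAs whose levels followed a pattern like that of the members were ranked by the mean absolute difference of log2 deviations over the 6 samples, among 274 miRNAs with a mean of at least 100 RPM. By their deposited names, the members were each other's closest match at 0.126. Reads that cannot be assigned to either member made up 55.0% to 71.9% of what is named miR-107-3p. The match was not computed without them. For miR-103-3p the next were miR-455-3p (0.148), miR-374b-5p (0.229) and miR-137-3p (0.236), against a median of 0.475. For miR-107-3p they were miR-29a-3p (0.164), miR-24-3p (0.178) and miR-30c-5p (0.187), against a median of 0.446. These are descriptions, and all miRNAs of a sample share its library and depth.

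Which member a read belongs to depends on position 22, and many reads did not hold either base there. Reads were therefore sorted by that base. Reads with the base of miR-103-3p (122 sequences) stood at 8820, 4518 and 4730 RPM in WT and 8083, 4248 and 8738 RPM in Tau tg. Reads with the base of miR-107-3p (38 sequences) stood at 1893, 667 and 949 RPM in WT and 1606, 660 and 1130 RPM in Tau tg. Reads sorted to neither (63 sequences), called shared here, stood at 2359, 1739 and 2132 RPM in WT and 2934, 1566 and 2837 RPM in Tau tg.

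The shared reads named miR-107-3p are short or carry another base at position 22, and they could come from any of the 3 hairpins. The other 2 shared sequences, of 27 and 28 bases, could not be placed. They hold the miR-103 base and averaged 0.896 RPM together. The table's miRNA column named 61 of the 63 shared sequences miR-107-3p. Its second annotation column placed all 61 of these on the mir-103-1 hairpin, so the columns give different sources for the same reads. Shared reads made up 55.0% to 71.9% of what is named miR-107-3p, and in each of the 6 samples they outnumbered the reads with the miR-107 base.

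**Figure D2:**
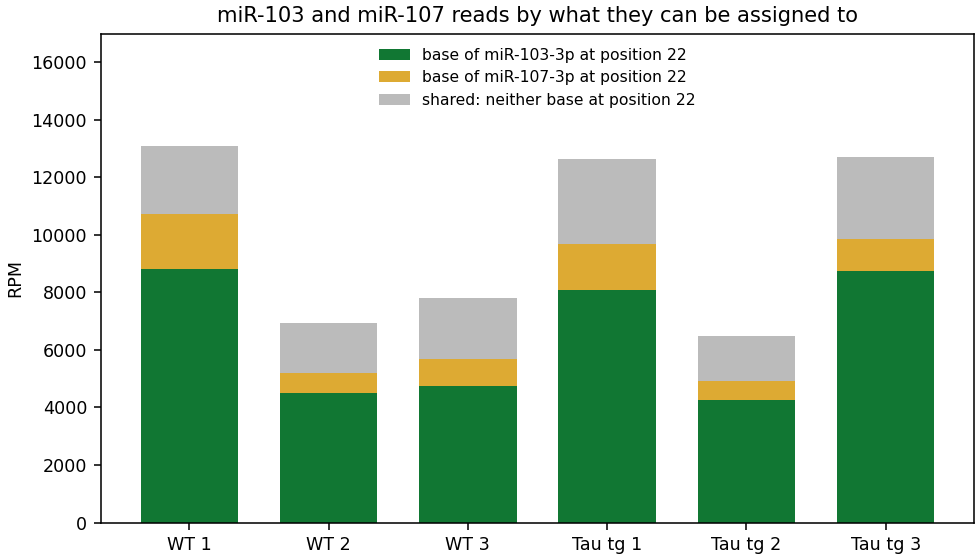
RPM of miR-103-3p and miR-107-3p reads in each of the 6 samples, stacked by what position 22 tells. Green is the base of miR-103-3p, yellow the base of miR-107-3p and grey neither, and grey exceeds yellow in every sample (1566 to 2934 RPM against 660 to 1893 RPM).

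The share of miR-107-3p in the family therefore depended on how these reads were counted. By the deposited names it was 32.7%, 34.9% and 39.6% in WT and 36.1%, 34.5% and 31.5% in Tau tg. Among reads that tell the members apart it was 17.7% (95% Wilson interval 17.2% to 18.2%), 12.9% (12.1% to 13.6%) and 16.7% (15.8% to 17.7%) in WT. In Tau tg it was 16.6% (16.3% to 16.9%), 13.4% (12.6% to 14.3%) and 11.5% (11.1% to 11.9%). The intervals cover counting error only, since the values come from PCR reads.

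The share by name was higher than the share by the distinguishing base in 6 of 6 samples. Given all shared reads, miR-107-3p would hold 31.2% to 39.4% of the family, and given none of them 8.90% to 14.5%. With reads that tell the members apart, miR-103-3p was 4.66- to 7.73-fold as abundant as miR-107-3p, against 1.53- to 2.18-fold by name.

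By genotype, the share among telling reads was 15.8 ± 2.54% in WT and 13.8 ± 2.58% in Tau tg (SD, n = 3 each; exact two-sided permutation test p = 0.4, adjusted p = 0.8 over 4 measures). The groups overlapped, and 3 against 3 samples cannot give a p below 0.1. Counted from telling reads alone, the log2 difference of miR-107-3p was -0.00067 (limma, adjusted p = 0.999), so its small positive difference by name came with the shared reads.

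**Figure D3:**
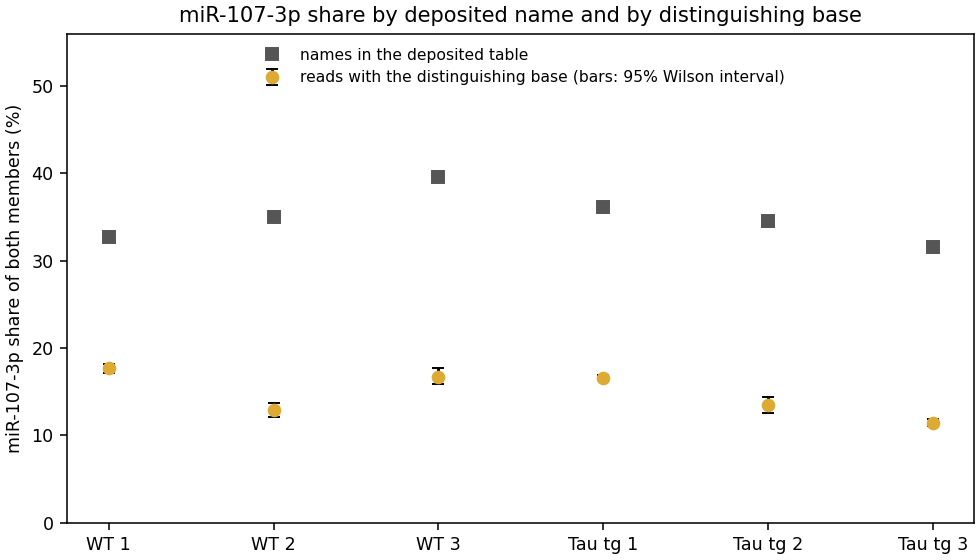
Share of miR-107-3p in the reads of both members, in percent, for each sample. Grey squares use the deposited names and yellow points the distinguishing base, with 95% Wilson intervals as bars. The squares lie at 31.5% to 39.6% and the points at 11.5% to 17.7%.

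The reads differed mostly at the 3′ end. The 6 most abundant sequences held 87.7% of the RPM of both members. The leading forms are printed with the base at position 22 in capitals where it is templated, or with bases added beyond the hairpin sequence in capitals, because these ends decide the assignment.
miR-103, ends at 23: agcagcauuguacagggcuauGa
shared, ends at 21: agcagcauuguacagggcuau
miR-103, ends at 22: agcagcauuguacagggcuauG
miR-103, ends at 22, U added: agcagcauuguacagggcuaugU
miR-107, ends at 23: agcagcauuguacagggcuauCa
miR-107, ends at 22: agcagcauuguacagggcuauC
miR-103, ends at 23, U added: agcagcauuguacagggcuaugaU
shared, ends at 21, U added: agcagcauuguacagggcuauU
miR-107, ends at 22, U added: agcagcauuguacagggcuaucU
miR-103, ends at 24: agcagcauuguacagggcuauGaa

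The annotated miR-103-3p form of 23 bases led, at 6138, 2330 and 3234 RPM in WT and 4776, 2308 and 5778 RPM in Tau tg. The second was the shared form of 21 bases, at 1912, 1224 and 1500 RPM in WT and 2420, 1230 and 2407 RPM in Tau tg. This form, named miR-107-3p in the table, was more abundant than the annotated miR-107-3p form in every sample. The latter stood at 876, 264 and 484 RPM in WT and 830, 225 and 549 RPM in Tau tg.

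The members differed in the shares of reads that ended at position 22 or 23 without added bases, in the same direction in each sample. Reads that stop before position 22 cannot be assigned and are not included. Among reads with the miR-107 base, those ending at position 22 made up 41.9 ± 8.24% (SD over 6 samples), against 17.2 ± 4.25% of reads with the miR-103 base. With U added after position 22, miR-103 stood at 771 RPM on average (1076 RPM without) and miR-107 at 88.9 RPM (447 RPM without). The size of the difference therefore depends on leaving such reads out. For ends at 22 without added bases, the difference was 24.7 ± 7.69 percentage points, positive in 6 of 6 samples and between 14.4 and 37.5. For an end at position 23 the shares were 46.3 ± 7.04% for miR-107-3p and 63.6 ± 7.85% for miR-103-3p, lower for miR-107-3p in 6 of 6 samples. Each comparison gave an exact two-sided sign-flip p of 0.0312 (adjusted p = 0.0938 over 6 tests), which is the smallest that 6 samples allow and did not pass after adjustment. This comparison was chosen after the values were seen.

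**Figure D4:**
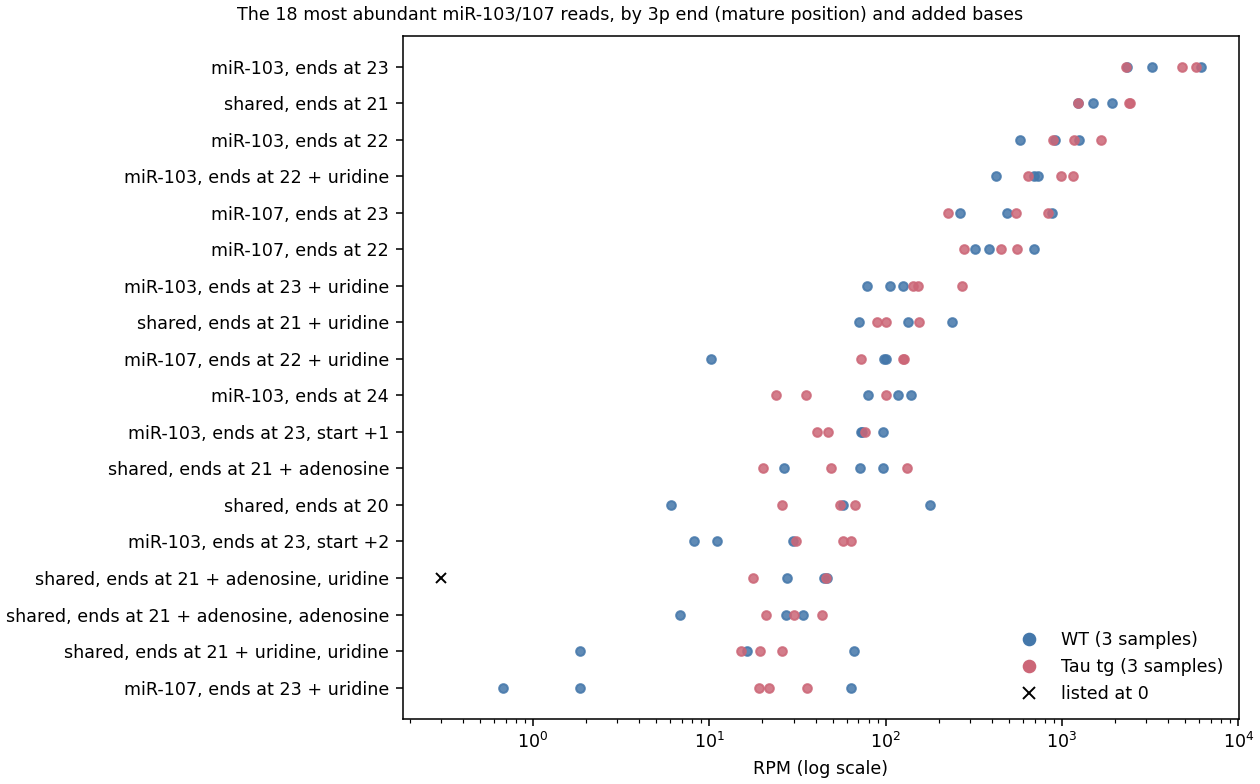
RPM (log axis) of the 18 most abundant sequences of the family, labelled by the member that position 22 tells, the last base that follows the hairpin (mature position) and the bases added. Blue points are WT, red points Tau tg samples, and the cross marks a sample listed at 0. Points of both colours mix in most rows, and the shared form ending at 21 lies above both leading miR-107 forms.

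Some reads ended in bases outside the hairpin sequence, and most of the ends counted were uridine. The share of member reads with such a 3′ end was 10.8%, 21.2% and 13.4% in WT and 15.1%, 18.7% and 13.7% in Tau tg (means 15.1 ± 5.38% and 15.8 ± 2.59%, SD, n = 3 each). The groups overlapped (exact permutation p = 0.8, adjusted p = 0.8). Tails of uridine alone ended 9.77% to 21.3% of reads with the miR-103 base and 1.62% to 22.2% of reads with the miR-107 base. The mean read length was 22.42 ± 0.06 bases in WT and 22.41 ± 0.04 bases in Tau tg (SD, n = 3 each; exact permutation p = 0.8, adjusted p = 0.8).

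Reads ending at position 24 of the hairpin sequence were a small class, 1.59%, 1.75% and 2.50% of miR-103-base reads in WT and 0.327%, 0.827% and 1.23% in Tau tg. All 3 WT values were above all 3 Tau tg values. Among miR-107-base reads this class was 0.742%, 0.203% and 0.0966% in WT and 0.594%, 0% and 0.615% in Tau tg, with overlapping groups. No test between the groups was run on these shares. The most abundant miR-103 sequence that ends there stood at 139, 79.3 and 117 RPM in WT and 23.9, 35.1 and 101 RPM in Tau tg. Its groups overlapped, and it was not called (log2 difference -1.29 ± 0.69 SE, limma adjusted p = 0.584).

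Of the 223 sequences, 110 passed the filter of a mean of at least 1 RPM. The others held 0.456% of the members' RPM. In limma, 5 of the 110 had an unadjusted p under 0.05 and 0 passed after adjustment, the smallest adjusted p being 0.584. Of the 5, 2 were higher and 3 lower in Tau tg, where the background over all 36070 sequences tested was 1.44% higher and 0.787% lower. Median-of-ratios scaling called 4, of which 0 were higher. edgeR called 5 at an unadjusted p and 0 after adjustment, all lower in Tau tg. DESeq2 called 6, all lower, and 2 after adjustment, and each of these 2 was above 0 in a single WT sample and in no other library. Over all sequences tested, the unadjusted calls were 8.55% lower and 0.721% higher in DESeq2, and 6.12% and 0.99% in edgeR. With median-of-ratios scaling they were 0.92% lower and 1.16% higher. After adjustment DESeq2 called 1.27% of all sequences.

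The sequences that passed the unadjusted threshold are printed with the same capitals. In the form with an extra 5′ base, that base does not follow the hairpin and is left in lower case. None is among the 10 leading forms.
miR-103, starts 2 bases late: cagcauuguacagggcuauGa
shared, ends at 21, AU added: agcagcauuguacagggcuauAU
miR-107, ends at 23, U added: agcagcauuguacagggcuaucaU
miR-103, 1 extra 5′ base: cagcagcauuguacagggcuauGa
shared, ends at 19, U added: agcagcauuguacagggcuU

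The miR-103 form that starts 2 bases late stood at 30.0, 8.13 and 11.0 RPM in WT and 56.9, 30.9 and 63.8 RPM in Tau tg, without overlap (log2 difference 1.71 ± 0.82 SE, unadjusted p = 0.0366). miR-107 with U added after position 23 was at 63.2, 0.678 and 1.83 RPM in WT and 36.0, 19.2 and 21.7 RPM in Tau tg (1.93 ± 0.94 SE, unadjusted p = 0.0395). Its highest value was in a WT sample. The forms with lower means in Tau tg were the shared form with AU added (unadjusted p = 0.0189), the form with an extra 5′ base (unadjusted p = 0.0102) and the shared form ending at 19 with U added (unadjusted p = 0.0144), all by limma and all at 0 in 1 Tau tg sample.

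Of the 34 member sequences above 0 in every sample, 2 had all Tau tg values above all WT values and 1 had all below, against 5.86% and 3.45% of the 5832 sequences of the table above 0 in every sample. One of the higher ones is the late-starting form above. The other is miR-103 with U added after position 23, at 125, 78.6 and 105 RPM in WT and 269, 143 and 152 RPM in Tau tg (log2 difference 0.83 ± 0.62 SE, limma adjusted p = 0.584). The lower one, a miR-103 form that starts 4 bases late, was named only because the count is small. It stood at 20.1, 8.81 and 8.26 RPM in WT and 5.98, 4.18 and 5.73 RPM in Tau tg.

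The 5′ end sets the seed, and it was exact in most reads. The share of member reads that start at the annotated base was 96.1%, 96.0% and 95.4% in WT and 97.5%, 96.4% and 97.5% in Tau tg. The means were 95.8 ± 0.348% and 97.2 ± 0.647% (SD, n = 3 each), and the groups did not overlap. The exact two-sided permutation p was 0.1, the smallest possible here (adjusted p = 0.4 over 4 measures), so the difference did not pass.

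Reads with 1 base before the annotated start made up 0.602%, 1.12% and 1.29% in WT and 0.289%, 0.530% and 0.393% in Tau tg. That base often did not follow the hairpins, which have an A there. The leading sequence of this class had a C (20.7 RPM on average), and the leading one with the A stood at 8.45 RPM. Reads that start 1 base late made up 1.70%, 1.21% and 2.55% in WT and 0.865%, 1.32% and 0.799% in Tau tg. Reads that start 2 bases late made up 0.462%, 0.127% and 0.317% in WT and 0.666%, 0.736% and 0.654% in Tau tg. For the class with 1 base before the start, all Tau tg values were below all WT values. For the 2-base late starts all were above, and for the 1-base late starts the groups overlapped. No test was run on these classes.

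**Figure D5:**
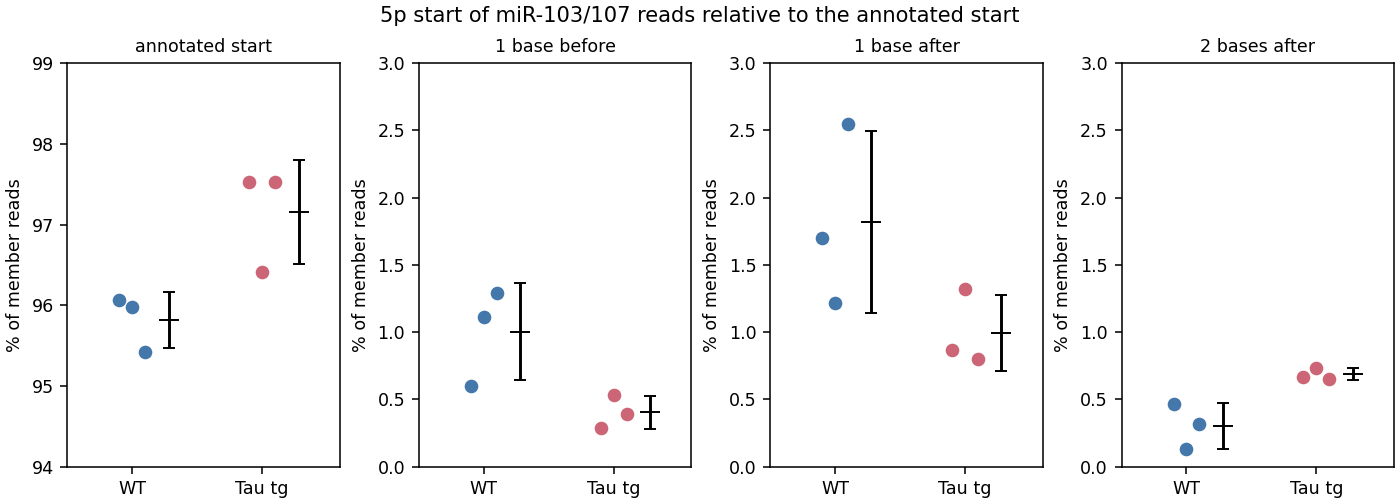
Percent of member reads by 5′ start in 3 WT (blue) and 3 Tau tg (red) samples, with the mean and SD in black. The first axis runs from 94% to 99% and the others from 0% to 3%. At the annotated start, WT samples lie at 95.4% to 96.1% and Tau tg samples at 96.4% to 97.5%.

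The 6mer seed, read positions 2 to 7, carries in this table a viability value, the percent viability of cells transfected with a short RNA of that seed, averaged by the authors over murine cell lines. The main seed of the family, GCAGCA, has a viability of 42.4%. It held 96.4% of member reads, and the members supplied 97.1% of all reads with this seed. By mean RPM it ranked 19 of 4051 seeds, and 6 among the seeds under 50% viability.

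The main seed stood at 12531, 6636 and 7435 RPM of member reads in WT and 12293, 6231 and 12344 RPM in Tau tg. The seed over all reads differed by 0.21 ± 0.35 (SE) on the log2 scale (limma adjusted p = 0.992), and it was not among the 172 of 3987 seeds with an unadjusted p under 0.05, which is 4.31%. The difference of the seed was 0.47 after median-of-ratios scaling, 0.57 in edgeR and 0.49 in DESeq2, and the seed was not called in any of them. The median difference over all seeds was -0.16 in limma and 0.06 after median-of-ratios scaling. In these 3 alternatives the scaling was computed from seed rows, but from miRNA rows for the members, so the values are not on 1 scale. For miR-103-3p and miR-107-3p they were 0.06 and -0.04 after median-of-ratios scaling, 0.12 and 0.02 in edgeR, and 0.08 and -0.02 in DESeq2. Because the seed is common to both members, its difference does not depend on how shared reads are named.

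Member reads made up 5.56%, 2.84% and 3.23% of all reads with a seed under 50% viability in WT, and 4.94%, 2.58% and 5.09% in Tau tg. The other seed with at least 1% of member reads was CAGCAU, from reads that start 1 base late, with a viability of 62.7% and 1.33% of member reads. The viability of member reads, weighted by RPM, was 43.1 ± 0.0824% in WT and 43.0 ± 0.163% in Tau tg (SD, n = 3 each). The groups overlapped, and both means were close to the 42.4% of the main seed.

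The opposite arms of the hairpins, the 5p strands, were scarce on Ago. miR-103-1-5p was at 8.43, 0 and 0 RPM in WT and 4.84, 0 and 2.46 RPM in Tau tg. miR-103-2-5p was at 17.8, 61.7 and 10.1 RPM in WT and 11.1, 27.6 and 36.4 RPM in Tau tg. miR-107-5p was at 0, 26.4 and 12.8 RPM in WT and 15.4, 0.836 and 37.6 RPM in Tau tg.

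Together the 5p arms made up 0.2% to 1.26% of the reads of both arms, so the 3p arm dominated in every sample. Unlike the 3p arms, the 5p arms of Mir103-1 and Mir103-2 have their own names, but they are nearly identical and the split between them is uncertain. miR-103-2-5p was the higher of these in 6 of 6 samples, and its levels rest on 11 to 91 reads per sample. All 3 arms had overlapping groups and adjusted limma p from 0.959 to 0.998.

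The related miR-15 group, which shares a core AGCAGC but starts it at another position, was tested as 7 miRNAs (miR-15a, miR-15b, miR-16, miR-195a, miR-322, miR-497a and miR-503, all 5p). Of 7, 0 had an unadjusted limma p under 0.05, and 0 passed after adjustment. Their median log2 difference was 0.13, against 0.25 over all miRNAs, and adjusted p ranged from 0.896 to 0.976. The group summed to 15966 to 22897 RPM per sample, above the 6473 to 13072 RPM of both members in each sample.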

How the data were processed

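Small-RNA reads of Ago complexes, pulled down with a GW182-derived peptide, were measured in 3 WT and 3 Tau tg mice, grouped by the sample titles. The authors trimmed reads (the submitters' notes name Trim Galore), compiled unique sequences with their SPOROS pipeline, removed rare and artificial reads, and annotated the rest by BLAST. The deposited values are RPM, scaled by the authors to library size; since rare reads were dropped, low values are incomplete. The viability score of each seed was used as deposited, and the deposited total, a signal column, was not used. Other authors' columns hold names only. Of 109434 rows, 65087 were above 0. The miRNA column was used for names. The mRNA names in the annotation refer to mm9, and none of its coordinates were used.

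Every RPM value was a whole number of reads within 0.0015 RPM (100% of values), so counts could be recovered. A value of 3 reads equals 0.427 RPM in the deepest and 2.75 RPM in the shallowest sample. Rows were summed per miRNA, seed and sequence, and those with a mean of at least 1 RPM were tested with limma 3.58.1 (mean-variance trend) on log2(RPM + 1), with Benjamini-Hochberg adjustment over all rows of the level; this scale understates changes of low rows. edgeR 4.0.16 (quasi-likelihood) and DESeq2 1.42.0 on recovered reads were alternatives, as were other pseudocounts, filters and scalings, a block on the replicate number, and fits without 1 sample. Shares were compared by exact two-sided permutation over 20 assignments. The tests were checked on simulated data.

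Reads were aligned without gaps to the RefSeq hairpins (GRCm38.p6). A read told the members apart if it held G or C at position 22 as aligned. A 3′ end outside the hairpin was a tail of at most 3 bases after position 18 or later. The miRNA tables matched both members, their 3 hairpins and 3 opposite arms; host genes came from GENCODE M21.

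Both members, their leading 5 sequences each, further ones averaging 10 RPM or more that passed an unadjusted p of 0.05 or did not overlap (up to 3 per direction), the opposite arms, the seeds with at least 1% of reads, the miR-15 group and the 3 most similar miRNAs were named by rule. Members and lists were chosen with earlier results of these data known. Replicate numbers did not pair samples. Software was Matplotlib 3.10.9, pandas 2.3.3, Python 3.11.15, R 4.3.3 and SciPy 1.17.1.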

Additional observations from a re-analysis of the deposited data

Results flagged for a closer look

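Reads that the second annotation column placed on the mir-103 or mir-107 hairpins, but that the miRNA column left without a name, lay outside all comparisons. They averaged 167 RPM over the 6 samples, in 129 sequences. Their levels were 173, 63.7 and 211 RPM in WT and 210, 114 and 229 RPM in Tau tg, with overlapping groups, and they rest on 94 to 1477 reads per sample. They were singled out as a signal in rows the comparisons do not use.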

How the results depend on the processing

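Under all alternatives run, no call of either member changed. The difference of miR-107-3p changed sign after median-of-ratios scaling (-0.0444), in DESeq2 (-0.0223) and with telling reads alone or shared reads as their own row (-0.00067, the latter added after seeing the data), and ranged from -0.0857 to 0.428 when 1 sample was left out; miR-103-3p ranged from 0.03 to 0.55 and the main seed from 0.03 to 0.52. With a replicate block, miR-103-3p stayed at 0.22 (unadjusted p = 0.466) and miR-107-3p at 0.12 (unadjusted p = 0.660) in limma. Same-number samples deviated together with correlations of -0.0020, -0.069 and 0.041 over miRNAs, so the numbers were not taken as pairs. miRNA calls ranged from 18 to 50, with 50 without WT 1.

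Member sequences called at an unadjusted p, 5 in the report, numbered 1 without the trend, 1 with a mean of at least 10 RPM, and 3 each with no filter, a pseudocount of 5 or quantile normalization. Leaving out 1 sample gave 2 (without Tau tg 2) to 6. Counting each sequence once turned the differences of the annotated start (-0.726 percentage points), read length (0.182 bases) and added 3′ ends (-4.48 percentage points). Leaving out 1 sample gave -0.0293 to 0.0291 bases, -1.46 to 3.72 points for added ends, 1.14 to 1.71 for the start, and -3.37 to -0.743 for the miR-107-3p share. The summed difference, 1331 RPM, ranged from 159 to 3395 RPM. The cause was not tested. The opposite arms rest on 0 to 108 reads per sample, so their levels carry large counting error.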
